A study of Mus musculus with 6 samples.

Results

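Of the 8 genes listed here as B cell genes, 7 had a row in the deposited table of libraries from mouse T-ALL (T-cell acute lymphoblastic leukaemia), out of 13185 rows. The genes were chosen by name alone, from their known roles in B lymphocytes, and with earlier results of these data known. The 7 were Ighm, Cd79a, Cd79b, Ebf1, Ms4a1, Blnk and Vpreb3, and Pax5 had no row. The study read the polyadenylated 3' ends of transcripts in T-ALL cells driven by Notch1, in 3 panobinostat and 3 untreated libraries. Panobinostat, a histone deacetylase inhibitor, was given at 25 nM for 2 h. Both groups grew on plates coated with an anti-CD3 antibody at 2.5 ug/mL, which stimulates the T cell receptor, and received 100 U/mL of IL-2, a growth factor of T cells. The labels gave neither the way the leukaemia was made nor the number of leukaemias, animals or cultures behind the libraries. All p-values thus rest on the spread between these libraries, which may be technical.

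B cells recognise antigen through a membrane immunoglobulin, first of the IgM class, held in the membrane with the signalling chains CD79A and CD79B. The transcription factors EBF1 and PAX5 open and maintain the B cell programme in lymphoid progenitors. Signals through Notch1 direct the same progenitors to the T cell lineage. Markers of B cells are therefore used as a sign of B lineage cells or transcripts in a T cell sample.

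Every library held reads of all 7 genes, and 1 of them passed the test for a change with panobinostat. Cd79b, the gene of 1 signalling chain of the B cell receptor, fell, and it was the only one of the 7 to pass the test (limma, Benjamini-Hochberg adjusted p below 0.05 over 12554 tested genes). In the same fit 38.3% of all tested genes passed, and falls made up 19.0% and rises 19.2% of the tested genes. The median log2 fold change was -0.09 over the 7 genes and -0.0052 over all tested genes. The median size of a change, without its sign, was 0.09 over the 7 genes and 0.40 over all. Panobinostat and untreated libraries did not overlap in 2 of the 7 genes, Cd79a and Cd79b, both lower with panobinostat, against 25.7% of all tested genes lower without overlap and 51.4% without overlap in either direction.

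Values were log2 CPM (counts per 1000000 reads), and steps between tied low values gave an estimate of 6010000 to 7740000 reads per library. Pearson correlations between libraries, across genes, were 0.964 to 0.974 inside a group and 0.923 to 0.945 across the groups. Of the T cell markers 17 had a row, among them Trbc2, Lck and Cd3d at mean levels of 9.70, 8.68 and 8.43 log2 CPM. Genes of other blood cells were read too, such as the globin gene Hba-a1 at 11.14 and the neutrophil gene S100a8 at 9.71 log2 CPM.

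**Figure D1:**
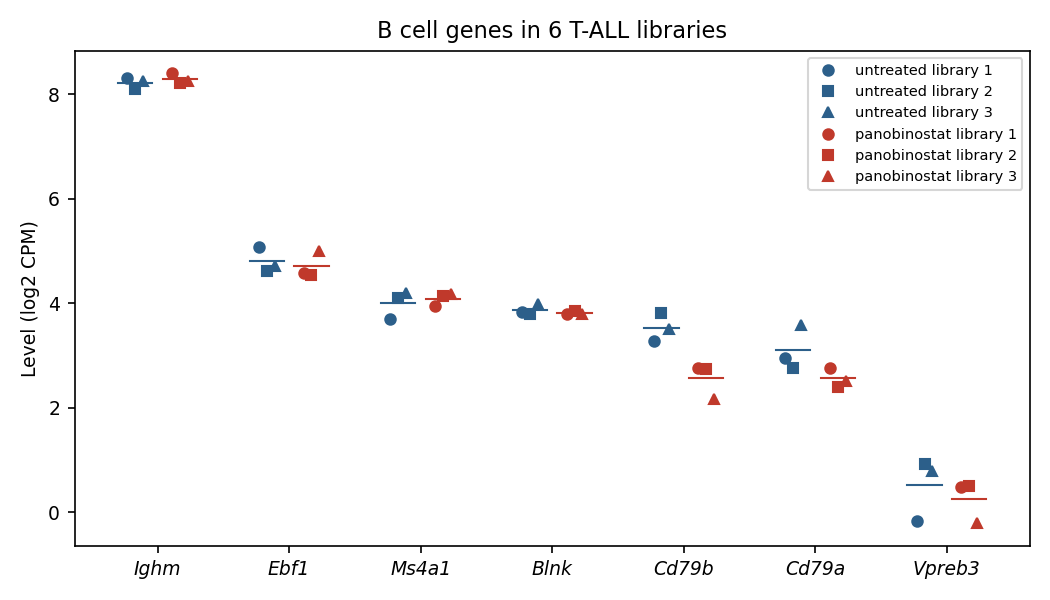
Level of each B cell gene (vertical axis, log2 CPM) in the 3 untreated (blue) and 3 panobinostat (red) libraries, with a line at each group mean. Ighm lay above 8 in every library, and the red points lie below the blue ones in Cd79b and, by a narrow gap, in Cd79a.

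Ebf1 encodes the factor that, with PAX5, commits progenitors to the B lineage. The gene lies on chromosome 11, 44617317 to 45008091, plus strand (mm10). Its levels were 4.59, 4.55 and 5.001 log2 CPM in panobinostat libraries 1 to 3, and 5.08, 4.61 and 4.72 in libraries 1 to 3 of untreated cells. Panobinostat library 3 and untreated library 1 were the high ones, so the groups overlapped. These were also the 2 deepest libraries, and a link with depth was not tested. The log2 fold change of Ebf1 was -0.09 (SE 0.17, 95% interval -0.49 to 0.31, limma adjusted p = 0.702). Without untreated library 1 it was 0.05.

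Pax5 (chromosome 4, 44524757 to 44710487) encodes the factor that holds B cells in their lineage and represses Notch1 in them. No level can be given for it. The filter that set which genes have a row was not given in the sources used here, so a missing row does not give the level of the gene.

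Ighm is the constant region gene of the IgM heavy chain, on chromosome 12, 113418558 to 113422730, minus strand. It was the highest of the 7 genes, with levels of 8.40, 8.21 and 8.26 log2 CPM in panobinostat libraries 1 to 3 and 8.32, 8.10 and 8.25 in libraries 1 to 3 of untreated cells. The values of the groups were interleaved, with the highest in panobinostat library 1 and the lowest in untreated library 2. Its mean of 306 CPM stood above 96.5% of the table's rows. Between 1847 and 2467 reads per library lay behind these values, so counting alone would give an SD of 0.03 on the log2 scale, while the SD within groups was 0.11. The log2 fold change was 0.07 (SE 0.09, 95% interval -0.13 to 0.27, limma adjusted p = 0.578). That interval leaves out a change as large as the one of Cd79b. Reads at the end of the constant region do not tell a transcript of a rearranged heavy chain from a germline one.

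Cd79a and Cd79b encode the Ig-alpha and Ig-beta chains, which carry the signal of the B cell receptor and lie on chromosome 7 (24897381 to 24902197, plus strand) and chromosome 11 (106311341 to 106314762, minus strand). Cd79b was at 2.77, 2.75 and 2.17 log2 CPM in panobinostat libraries 1 to 3, and at 3.28, 3.82 and 3.51 in libraries 1 to 3 of untreated cells. Every panobinostat value lay below every untreated value, and panobinostat library 3 was the lowest of all. It fell by 0.97 on the log2 scale, to 0.509 of the untreated level (SE 0.23, 95% interval -1.50 to -0.45, limma adjusted p = 0.0123). The call held in each of the 6 fits with 1 library left out, where the log2 fold change ran from -1.10 to -0.78 and the adjusted p from 0.0102 to 0.0412. Reads behind Cd79b were 34 to 45 per panobinostat library and 74 to 91 per untreated library.

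Cd79a gave a smaller difference in the same direction. It was at 2.77, 2.40 and 2.52 log2 CPM in panobinostat libraries 1 to 3 and at 2.95, 2.77 and 3.59 in libraries 1 to 3 of untreated cells. The groups met at 2.77, where panobinostat library 1 (2.7651) lay just under untreated library 2 (2.7704), and untreated library 3 stood apart above the rest. The log2 fold change was -0.54 (SE 0.24, 95% interval -1.10 to 0.02, limma adjusted p = 0.114). Without untreated library 3 it was -0.30, and with sample weights it passed (-0.82, adjusted p = 0.0196). Reads were 35 to 43 per panobinostat library and 44 to 78 per untreated library. Whether the changes of Cd79a and Cd79b differ from each other was not tested.

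Ms4a1 encodes the surface protein CD20 of mature B cells (chromosome 19, 11249675 to 11266241, minus strand). It was at 3.95, 4.14 and 4.17 log2 CPM in panobinostat libraries 1 to 3 and at 3.71, 4.09 and 4.20 in libraries 1 to 3 of untreated cells. The lowest and the highest value were both untreated. The log2 fold change was 0.09 (SE 0.16, 95% interval -0.28 to 0.45, limma adjusted p = 0.693), and -0.06 without untreated library 1.

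Blnk encodes the adaptor that couples the kinase SYK to calcium signalling below the B cell receptor, on chromosome 19, 40928927 to 40994535, minus strand. Vpreb3, on chromosome 10, 75943057 to 75949657, plus strand, encodes a relative of the surrogate light chain that binds IgM heavy chains in B cell precursors. Upstream sequences were given for 5 of the 8 listed genes in RefSeq (build GRCm38.p6). In the 250 bases before the RefSeq start site, the octamer ATGCAAAT was found, on either strand, in 2 of these 5 genes, Blnk and Vpreb3, and in 1.60% of the 32851 promoters of that table. The octamer is the motif of the POU factors OCT1 and OCT2, whose B cell coactivator OCA-B is the product of Pou2af1. The core motif CCCNNGGG of EBF1, the same on both strands, was in 0 of the 6 promoters and in 11.8% of all promoters. The windows of both genes with an octamer are shown 5′ to 3′ on the gene's strand, with the octamer, in its reverse orientation, in capitals. The window of Blnk is chr19:40994222-40994471, minus strand, and that of Vpreb3 is chr10:75948050-75948299, plus strand. Both windows lie inside the gene spans given above, which are those of GENCODE and begin further upstream than the RefSeq start sites. A match in these letters is a description and not a binding site.
Blnk: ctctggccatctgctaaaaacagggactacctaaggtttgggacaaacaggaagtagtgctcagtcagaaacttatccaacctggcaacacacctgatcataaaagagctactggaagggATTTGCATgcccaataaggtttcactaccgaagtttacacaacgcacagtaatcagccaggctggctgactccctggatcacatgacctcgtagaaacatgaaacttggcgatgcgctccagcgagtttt
Vpreb3: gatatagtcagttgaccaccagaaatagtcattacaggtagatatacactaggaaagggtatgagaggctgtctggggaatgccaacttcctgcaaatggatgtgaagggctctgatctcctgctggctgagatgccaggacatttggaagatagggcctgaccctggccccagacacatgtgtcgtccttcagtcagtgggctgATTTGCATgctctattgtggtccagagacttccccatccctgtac

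The octamer began 130 bases before the RefSeq start site in Blnk and 45 bases before it in Vpreb3. Blnk was the steadiest of the 7 genes, at 3.79, 3.85 and 3.79 log2 CPM in panobinostat libraries 1 to 3 and 3.84, 3.79 and 3.98 in libraries 1 to 3 of untreated cells. The groups overlapped, and the SD within groups of 0.08 was below the 0.15 that counting of 84 to 111 reads would give alone. Its log2 fold change was -0.06 (SE 0.12, 95% interval -0.34 to 0.22, limma adjusted p = 0.725). Vpreb3 was near the lower end of detection, with 6 to 12 reads per library and 53 in all. Its levels were 0.48, 0.51 and -0.21 log2 CPM in panobinostat libraries 1 to 3 and -0.17, 0.93 and 0.80 in libraries 1 to 3 of untreated cells. The low values came from panobinostat library 3 and untreated library 1, the same libraries in which Ebf1 was high. The SD within groups of Vpreb3, 0.51, was close to the 0.50 expected from counting. The log2 fold change of Vpreb3 was -0.26 (SE 0.43, 95% interval -1.25 to 0.74, limma adjusted p = 0.663). That wide interval holds both falls and rises. Over the fits with 1 library left out the change ran from -0.60, without untreated library 1, to -0.02, without panobinostat library 3.

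**Figure D2:**
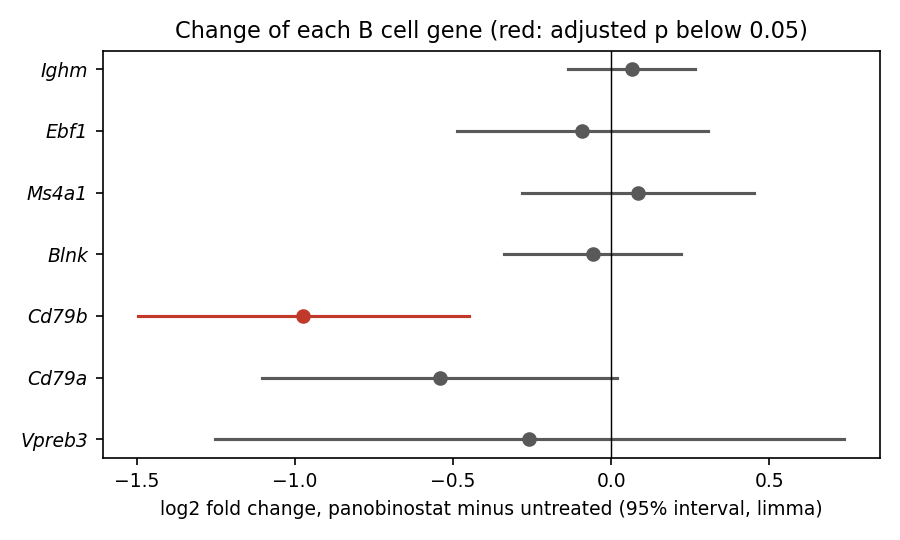
Log2 fold change of each B cell gene (horizontal axis, panobinostat minus untreated) with its 95% interval from limma, in order of mean level. The interval of Cd79b lies wholly below 0, from -1.50 to -0.45, that of Cd79a reaches 0.02, and that of Vpreb3 is the widest.

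The order of the mean levels was Ighm (8.26 log2 CPM), Ebf1 (4.76), Ms4a1 (4.04), Blnk (3.84), Cd79b (3.05), Cd79a (2.83) and Vpreb3 (0.39). These are levels of reads at transcript ends, which in this kind of library are not divided by transcript length. Ighm lay above Ebf1, Ebf1 above Ms4a1 and Cd79a above Vpreb3 in 6 of 6 libraries with ranges that did not meet. The neighbours Ms4a1 and Blnk, Blnk and Cd79b, and Cd79b and Cd79a had overlapping ranges. In the last pair Cd79b was the higher in 3 of 6 libraries and Cd79a in panobinostat library 3 and untreated library 3, and both had the same value in panobinostat library 1.

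The gene profiles most like each member over the 6 libraries (Pearson correlation of log2 values, the 2 highest among the tested genes) came from many kinds of gene. For Cd79b they were the ferritin light chain gene Ftl1 (r = 0.998, log2 fold change -0.32) and the stress gene Nupr1 (r = 0.997, -1.27). The Ftl1 call did not hold without panobinostat library 3 or untreated library 2 or 3 (-0.33 to -0.26). For Cd79a they were Endov (0.987) and Shmt2 (0.986), and for Ighm Klc2 (0.994) and Med13 (0.975). For Ebf1 they were Arhgap33 (0.970) and Pde10a (0.965), and for Ms4a1 Atraid (0.993) and Rnu1a1 (0.980). For Blnk they were Mras (0.994) and Mir8097 (0.969), and for Vpreb3 Slc48a1 (0.992) and Itpk1 (0.979). With 6 libraries and 12554 genes to choose from, the highest correlations are high for any gene, and they are given as a description.

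Summed over the 7 genes, the level was 406, 365 and 381 CPM in panobinostat libraries 1 to 3 and 398, 352 and 391 CPM in libraries 1 to 3 of untreated cells, most of it from Ighm. Without Ighm the sums were 68.3, 68.9 and 74.9 CPM with panobinostat and 79.5, 78.2 and 85.7 CPM in untreated libraries. Of the genes in these sums, only Cd79a and Cd79b were lower in every panobinostat library than in every untreated one. They were at 5.28 to 6.80 and 4.51 to 6.80 CPM with panobinostat, against 6.82 to 12.0 and 9.69 to 14.1 CPM untreated. Ebf1, Ms4a1, Blnk and Vpreb3 overlapped between the groups. In a bulk sample, fewer cells of a type and less RNA per cell cannot be told apart. The summed markers of other cells were also lower with panobinostat. For 17 T cell markers the sums were 2546 to 2697 CPM with panobinostat and 3328 to 3503 CPM without, and 1 rose and 8 fell (52.9% called). For 17 myeloid markers they were 1268 to 1381 and 1568 to 1753 CPM, with 0 rises and 5 falls (29.4%). For 13 erythroid and megakaryocyte markers they were 6401 to 6809 and 6815 to 8093 CPM, and of the 12 tested 1 rose and 6 fell (58.3%). For 9 dendritic cell and MHC class II markers they were 202 to 225 and 243 to 277 CPM, with 1 rise and 4 falls (55.6%). Shares are of the tested genes in each list. Over all tested genes 38.3% were called, 19.2% as rises and 19.0% as falls. NK markers (12.9 to 15.1 and 15.5 to 18.1 CPM, 2 of 9 in the table) and stromal markers (61.6 to 80.8 and 89.7 to 124 CPM, 2 of 8) were mostly without a row. Among the defining genes without a row were the NK receptor gene Ncr1 and the collagen genes Col1a1 and Col1a2. The part of any of these cells in the fall of Cd79b was not tested.

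**Figure D3:**
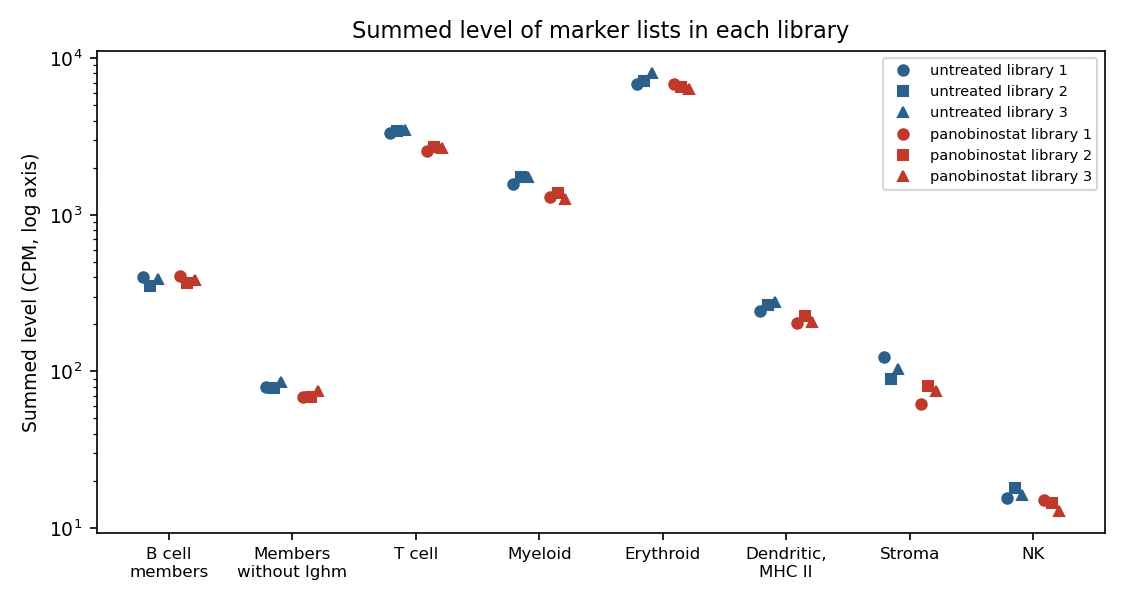
Summed level of the B cell genes and of 6 lists of other cell types (vertical axis, CPM, log scale) in each library, untreated in blue and panobinostat in red. The sums over all 7 B cell genes overlap between the groups (352 to 398 and 365 to 406 CPM), while those without Ighm and those of the T cell, myeloid, erythroid, dendritic, stromal and NK lists lie lower with panobinostat. Of the B cell genes other than Ighm, only Cd79a and Cd79b did not overlap between the groups. The stromal and NK lists hold only 2 genes each. In the erythroid list the gap is narrow, from 6809 CPM with panobinostat to 6815 CPM untreated.

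In the other lists the leading genes behaved as follows. Trbc2 (log2 change -0.32), Lck (-0.82) and Cd3d (-0.51) fell, as did S100a8 (-0.39) and Ngp (-0.44), while S100a9 stood at -0.14 (adjusted p = 0.181). H2-Eb1 (-0.39) and H2-Ab1 (-0.44) fell, and H2-Aa stood at -0.04. Hba-a1 (-0.37) and Hba-a2 (-0.40), near-identical copies, fell, and Hbb-bt stood at 0.18. Pecam1 fell (-0.56), and Gzma (-0.27), Nkg7 (0.12) and Kdr (0.61) did not pass. Of these calls, Trbc2 failed without panobinostat library 1 or 3 (-0.32 to -0.27), H2-Ab1 without panobinostat library 3 or untreated library 3 (-0.43 to -0.40) and Pecam1 without panobinostat library 1 or untreated library 3 (-0.57 to -0.44). Hba-a1 was lost in every fit with 1 library left out except that without untreated library 1 (-0.39 to -0.28), and Hba-a2 without panobinostat library 2 or 3 or untreated library 2 or 3 (-0.38 to -0.29).

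Beyond the 7 genes, 79 other genes of the B cell and plasma cell lists were measured, many of which T cells and other blood cells also express. Of these, 10 rose and 26 fell, which is 45.6%, against 38.3% of all tested genes. Their median log2 fold change was -0.29. Of the 36 calls, 16 held in all 6 fits with 1 library left out, 4 rises and 12 falls. The number of rises was 6, 5 and 5 without panobinostat libraries 1 to 3 and 5 without untreated library 3, and the number of falls was 16 without panobinostat library 3 or untreated library 3. Without the mean-variance trend of limma the calls of Cd93, Grb2, Tcf12, Tcf3, Tcf4 and Vav1 were lost too (adjusted p = 0.0529 to 0.088). Some genes stand in 2 lists, so the counts by list add up to more than these totals.

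Of the 9 antibody chain genes in the table, 0 rose and 3 fell, which is 33.3%, against 38.3% of all tested genes. Of the heavy chain constant genes of switched classes, 3 fell, Ighg2b by 0.74 ± 0.18 (SE), Igha by 0.66 ± 0.17 and Ighg2c by 0.45 ± 0.13 on the log2 scale. Ighg1 (-1.003 ± 0.46, adjusted p = 0.125) and Ighg3 (-0.36 ± 0.31, adjusted p = 0.403) did not pass and overlapped between the groups, and Ighm did not pass either. Ighg2b and Ighg2c are similar in sequence, so it is uncertain how reads were divided between them. The kappa light chain gene Igkc stood at 0.44 ± 0.21 (adjusted p = 0.13), with every panobinostat value (3.57 to 4.20 log2 CPM) above every untreated one (3.11 to 3.47), and at 0.24 without panobinostat library 1. The surrogate light chain genes Vpreb1 and Igll1 had no row. The Igha call failed without panobinostat library 1 or 2 or untreated library 2 or 3 (-0.63 to -0.56), and the Ighg2b call without panobinostat library 3 or untreated library 2 or 3 (-0.66 to -0.63). The Ighg2c call did not hold without panobinostat library 2 or 3 or untreated library 2 or 3 (-0.46 to -0.39).

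Among the 20 surface receptor genes in the table, 1 rose and 9 fell, with a median log2 fold change of -0.58. That is a larger share called than over all tested genes, where 38.3% were called, 19.2% as rises and 19.0% as falls. Siglecg, an inhibitory receptor of B cells, was at 1.90, 1.96 and 1.70 log2 CPM with panobinostat and at 3.78, 3.53 and 3.59 without (log2 change -1.78, SE 0.17, limma adjusted p = 0.00047). The receptor of the B cell survival factor BAFF, Tnfrsf13c, fell by 0.99 ± 0.16 (SE), the tetraspanin gene Cd37 by 0.71 ± 0.15 and the IL-7 receptor gene Il7r, which T cell precursors share, by 2.32 ± 0.33. Il7r was low with panobinostat, at 0.02 to 0.71 log2 CPM against 2.17 to 3.03 without. With a pseudocount of 1 its log2 fold change was -1.71. Falls were also called for Cd40 (-0.97), the IgM Fc receptor gene Fcmr (-0.76), Cd93 (-0.75) and Cd24a (-0.35), and Cr2, a complement receptor, rose (0.77). Cd22, an inhibitory coreceptor, stood at -0.27 ± 0.26 (SE, adjusted p = 0.437), at -0.03 without untreated library 2 and at -0.47 without untreated library 1. Calls were lost for Cd40 without panobinostat library 1 or 2 or untreated library 1 (-0.96 to -0.77), for Fcmr without panobinostat library 2 or 3 or untreated library 2 or 3 (-0.74 to -0.62), and for Cd93 without panobinostat library 2 or 3 or untreated library 1 or 3 (-0.68 to -0.63). Cd24a failed without panobinostat library 3 (-0.28). Cr2 was lost in every fit with 1 library left out except that without untreated library 2 (0.62 to 0.85).

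Among the 24 transcription factors and coactivators, 6 rose and 7 fell, which is 54.2%, against 38.3% of all tested genes. Pou2af1, the coactivator of octamer factors, was at 5.71, 5.69 and 5.48 log2 CPM with panobinostat and at 6.80, 7.04 and 6.78 without (a change of -1.25, SE 0.11, limma adjusted p = 0.000335). Blnk and Vpreb3, whose windows above hold an octamer, stood at -0.06 and -0.26. A link between Pou2af1 and the levels of these genes was not tested. Spi1, which encodes PU.1 of B and myeloid cells, fell by 1.32 ± 0.19 (SE), Ikzf3, which encodes Aiolos, by 0.78 ± 0.14, Ikzf1 by 0.59 ± 0.09 and Myb by 0.77 ± 0.07. The E protein gene Tcf3, needed for B cell commitment, fell by 0.31 ± 0.09, and its relatives Tcf4 (0.29 ± 0.08) and Tcf12 (0.40 ± 0.13) rose, as did Foxo1 (0.33 ± 0.09). Their antagonists went opposite ways, Id2 at -1.54 and Id3 at 2.57. Spib, a relative of Spi1, stood at 0.02 ± 0.16 (adjusted p = 0.949), and its sign changed without panobinostat library 1 (-0.04) and without untreated libraries 1 (-0.09) or 3 (-0.05). Calls were lost for Tcf3 without panobinostat library 2 or 3 or untreated library 1 or 3 (-0.30 to -0.27), for Tcf4 without panobinostat library 3 or untreated library 3 (0.25 to 0.28) and for Foxo1 without panobinostat library 1 or 2 (0.30 to 0.32). Tcf12 was lost in every such fit except that without untreated library 1 (0.28 to 0.45).

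Among the 24 genes of B cell receptor signalling, most of which T cells share, 2 rose and 7 fell, with a median of -0.27. That is 37.5% called, against 38.3% of all tested genes. Syk, the kinase that CD79A and CD79B recruit, fell by 0.63 ± 0.12 (SE), from 4.93 to 5.01 log2 CPM in untreated to 4.13 to 4.48 in panobinostat libraries. Btk, the Tec kinase below SYK, fell by 0.53 ± 0.15, the adaptor gene Dapp1 by 0.55 ± 0.15 and Vav1 by 0.56 ± 0.16. Smaller falls were those of Pik3r1 (-0.33) and the phosphatase gene Ptpn6 (-0.29), and Pik3cd (0.33) and Grb2 (0.25) rose. Blk, a Src kinase of B cells, stood at 0.07 ± 0.27 (adjusted p = 0.865), with a change of sign without panobinostat library 2 (-0.10) or untreated library 3 (-0.07). Of these calls, Btk failed without panobinostat library 1, 2 or 3 or untreated library 3 (-0.54 to -0.41), Dapp1 without panobinostat library 1 or 3 or untreated library 2 or 3 (-0.57 to -0.44) and Vav1 without panobinostat library 3 or untreated library 2 or 3 (-0.58 to -0.40). Pik3r1 failed without panobinostat library 1 or untreated library 3 (-0.32 to -0.29), Ptpn6 without panobinostat library 3 (-0.29), Pik3cd without panobinostat library 2 or 3 or untreated library 3 (0.30 to 0.31) and Grb2 without panobinostat library 1, 2 or 3 or untreated library 3 (0.23 to 0.25).

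Plasma cell genes, which mark the antibody-secreting end of the lineage, gave 3 rises and 1 fall of 7 measured. That is 57.1% called, against 38.3% of all tested genes. Mzb1, a chaperone of antibody assembly, was at 5.09, 5.23 and 5.11 log2 CPM with panobinostat and at 5.75, 6.02 and 6.13 without (log2 change -0.82, SE 0.12, limma adjusted p = 0.00199). The transcription factor genes Irf4 (1.36 ± 0.11, SE) and Xbp1 (1.10 ± 0.19) and the surface proteoglycan gene Sdc1 (0.63 ± 0.15) rose. Irf4 and Xbp1 are also counted among the transcription factors above. Irf4 also responds to T cell receptor signals.

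**Figure D4:**
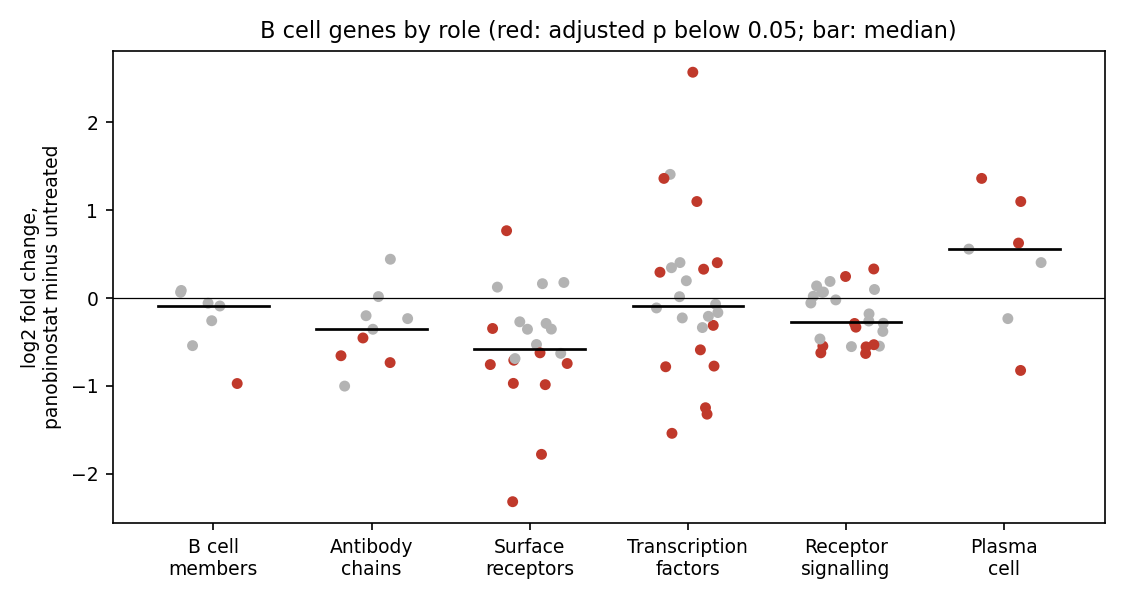
Log2 fold change (vertical axis, panobinostat minus untreated) of the 7 B cell genes and of the other B cell and plasma cell genes by role, with called genes in red, others in grey and a bar at each median. Of the surface receptors, 9 were called lower and 1 higher, while 6 of the 7 B cell genes on the left are grey. Over all tested genes 38.3% were called.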

How the data were processed

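The authors deposited 1 table of log2 values per gene and library. That these are log2 CPM, quantile normalized between libraries, was inferred from the values, whose powers of 2 summed to 994114 to 994182 per library. Reads had been mapped to build mm10, with HISAT2 2.1.0, cutadapt 1.9, Subread 1.5.0 (featureCounts) and limma named as tools, per the submitters' processing notes. Which annotation, strand option and filter they used was not given in the sources used here.

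Columns were matched to samples by treatment and S number, and library numbers come from the column names. Genes averaging 0 log2 CPM or more were tested with limma 3.58.1 (lmFit, eBayes with trend) in R 4.3.3, with Benjamini-Hochberg adjustment at 0.05 and no pseudocount. All 7 genes with a row passed this filter. Reads were estimated from the steps between tied values, up to 300 steps, and beyond that from the steps per CPM at 200 steps. Such reads are not independent molecules, and estimates of counting error cover counting only. Intervals are 95% intervals from limma. Gene positions are those of GENCODE M21, which uses this build. No other annotated gene shared exons with the 7 genes. The scripts were tested on simulated data.

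The members, the 5 other B cell lists, the 6 lists of other cell types and the rule for named genes were chosen with earlier results of these data known. The rule took the members, every called gene of the 5 lists and 10 fixed genes (among them Cd22, Spib, Pou2af1, Blk, Btk, Igkc, Vpreb1, Igll1 and Il7r). The counts by list include 1 called gene that is not reported here. The rule also took the 3 highest genes of each other cell type and the 2 profiles most like each member, leaving out predicted genes and pseudogenes. Alternatives were filters, a pseudocount of 1, scalings, spread models, sample weights, a stricter threshold, voom on estimated reads, a replicate block and each library left out.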

Additional observations from a re-analysis of the deposited data

How the results depend on the processing

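The fall of Cd79b held under every alternative run except the threshold of 0.01 (-0.97, limma adjusted p = 0.0123), with log2 fold changes of -1.10 to -0.78 over the fits with 1 library left out. Cd79a passed with sample weights (-0.82) and in none of the other alternatives. At the threshold of 0.01, 2513 of the 4806 calls over all genes were left, and 3 rises and 12 falls of other B cell genes. With 1 library left out, all calls numbered 3295 to 5226, and other B cell genes gave 5 to 10 rises and 16 to 24 falls; the cause was not tested.

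Among the genes named here, signs changed only in genes that did not pass. With sample weights Ms4a1 was at -0.025, Pde10a at 0.067, Atraid at -0.029 and Rnu1a1 at -0.028. Over the fits with 1 library left out, Ighm kept its sign at 0.0037 to 0.11 and Blnk at -0.0985 to -0.0030, while Ebf1 ran from -0.23 to 0.047, Ms4a1 from -0.059 to 0.18, Blk from -0.10 to 0.22, Spib from -0.089 to 0.19, H2-Aa from -0.092 to 0.046 and Nkg7 from -0.029 to 0.40. Klc2 ran from -0.019 to 0.20, Med13 from -0.023 to 0.075, Arhgap33 from -0.52 to 0.037, Pde10a from -0.30 to 0.17, Atraid from -0.072 to 0.19, Rnu1a1 from -0.27 to 0.67 and Slc48a1 from -0.17 to 0.0008. The cause was not tested.

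With the column numbers as a replicate block, 4148 genes were called, with 8 rises and 23 falls among other B cell genes, and Cd79b passed (adjusted p = 0.0212). The block ended the calls of Fcmr, Foxo1, Grb2, Ighg2c and Tcf3 (adjusted p = 0.0504 to 0.0648) and of Hba-a1, Hba-a2 and Pecam1 (0.0523 to 0.0661). Without the mean-variance trend Ftl1, Hba-a1, Hba-a2, Pecam1 and Trbc2 were lost (0.051 to 0.0814), as were the 6 B cell genes named above. Deviations of same-numbered libraries from their group means correlated at -0.04, 0.10 and -0.01, so the numbers were not taken as pairs. Panobinostat library 3 correlated best with untreated library 1 (0.15). Depth limits Vpreb3, with 6 to 12 reads per library.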

Other observations

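Fcer2a, a B cell surface receptor gene named here after its values were seen, was at 2.69 log2 CPM in untreated library 2 and at 0.51 to 0.80 in the other libraries. Mef2b, a transcription factor gene of germinal centre B cells also named after its values were seen, stood at 1.41 ± 0.49 (SE) and did not pass (limma adjusted p = 0.0549), with values of 1.64, 0.51 and 0.71 log2 CPM in panobinostat libraries 1 to 3 and -1.22, -0.17 and 0.02 in libraries 1 to 3 of untreated cells.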
